A study of Arabidopsis thaliana with 24 samples.

Results

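The comparison described here sets total RNA of developing seeds at 15 days after pollination (DAP) against total RNA at 12 DAP in Arabidopsis thaliana. Its members were chosen by their labels alone. They are the 3 arrays of total RNA at 15 DAP and the 3 arrays of total RNA at 12 DAP, 6 of the 24 arrays in the series. The other 18 arrays hold total RNA of 2 later stages, 18 and 20 DAP, and polysomal RNA of all 4 stages. The 15 DAP group and the 12 DAP group share everything else that the labels give: ecotype Col-0, with no mutation or treatment named, seed as the tissue, and extraction with the same reagents. Per the labels, plants were raised in 3 randomized blocks and each block's plants were bulked, so a value is the mean of a pool and the spread is that between pools. Biotin-labelled cRNA was hybridised to one-colour arrays. The deposited values are log2 levels of 27827 loci after RMA, a method that corrects background, brings the arrays to a common scale and combines the probes of each locus. The array design and the genome build are not given in the sources used here, so loci are named by their locus code and, where RefSeq gives one, their gene name.

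An Arabidopsis seed passes through morphogenesis, in which the embryo and seed coat are built and the endosperm is consumed, and then through maturation, in which the embryo stores protein and oil, acquires tolerance of drying and enters dormancy. A small network of transcription factors (LEC1, LEC2, FUS3 and ABI3, with the hormone abscisic acid) runs maturation. The embryo is green while it fills and loses its chlorophyll before the seed dries. The comparison asks which transcripts of the whole seed differ between a filling seed and one 3 days older. In RNA of whole seeds, fewer cells of a type and less RNA per cell cannot be told apart.

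The 3 arrays of 15 DAP and the 3 of 12 DAP differ in ways that touch every result. Levels spread over the loci with an SD of 2.13 to 2.19 log2 units on the 15 DAP arrays, against 1.64 to 1.71 on the 12 DAP arrays. Replicates correlated across loci at 0.963 to 0.966 at 15 DAP, against 0.819 to 0.851 at 12 DAP, and loci are no independent samples in such a correlation. Between replicates the median SD was 0.290 at 15 DAP, against 0.532 at 12 DAP. The median difference over all loci, 15 minus 12 DAP, was -0.318 as deposited and -0.0295 after quantile normalization of the 6 arrays, which gives all of them the same distribution. Each difference below is therefore given as deposited and, where it matters, on quantile values. Differences are log2 values, 15 minus 12 DAP, ± SE from limma fitted to these 6 arrays, with n = 3 arrays per stage. P values are adjusted over all 27827 loci, and a locus is called at an adjusted p under 0.05.

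**Figure D1:**
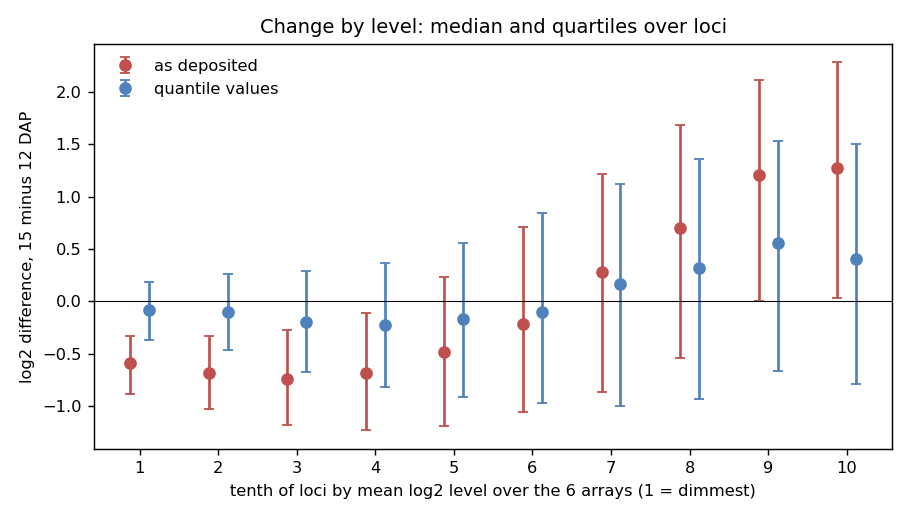
Log2 difference, 15 minus 12 DAP, for loci sorted into deciles by their mean level over the 6 arrays (x axis, 1 the dimmest). Points are medians and bars run from the lower to the upper quartile over loci. As deposited, the median runs between -0.742 in the third decile and 1.27 in the brightest decile. On quantile values it stays between -0.228 and 0.557.

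The wider range at 15 DAP shows as a link between level and change. Among the dimmest decile of loci the median difference was -0.592, and 0 of 2782 loci rose while 389 fell. Among the brightest decile it was 1.27, and 1559 of 2783 loci rose while 399 fell. On quantile values the brightest decile had a median difference of 0.405, with 872 loci higher and 566 lower. Falls in the dimmest decile numbered 22 on quantile values. Which scale holds for these seeds was not tested.

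Of the 27827 loci, 5704 rose (20.5%) and 5407 fell (19.4%) at 15 DAP as deposited. On quantile values 3889 rose (14.0%) and 3169 fell (11.4%). Counts for each list below stand against these shares over all loci. A total of 6409 loci were called in the same direction on both scales, which is 57.7% of the calls as deposited and 90.8% of those on quantile values, and 0 loci were called in opposite directions. Among these, 3654 rose and 2755 fell. Groups without overlap were common as deposited, with 24.8% of all loci higher and 27.9% lower at 15 DAP in this way. The split between higher and lower calls also moved with the scale, since 51.3% of the calls were higher as deposited, 55.1% on quantile values, 66.6% after centring each array on its median and 48.8% after cyclic loess. Polysomal RNA, measured on 6 arrays that are not among those compared, had a step of the same sign at 98.7% of the loci that rose and 93.7% of those that fell, against 86.0% of all loci. These steps are as deposited, and among loci called on both scales the share was 94.7%. The polysomal arrays also differed in range, with an SD over loci of 1.39 to 1.49 at 12 DAP, against 2.32 to 2.38 at 15 DAP. The part of that range in the shared signs was not tested.

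The largest rises began with AT5G66430, a locus without a RefSeq gene name. Its levels were 9.87, 10.01 and 10.10 at 15 DAP, against 3.89, 3.35 and 3.90 at 12 DAP, and the difference was 6.28 ± 0.32 (adjusted p = 7.39e-06). NAC032, a transcription factor of the NAC family that responds to stress, had levels of 9.94, 9.85 and 9.76 at 15 DAP, against 4.98, 3.96 and 3.06 at 12 DAP. It rose by 5.85 ± 0.46 (adjusted p = 3.35e-05), although its 12 DAP arrays lay far apart. NYE2, one of the STAY-GREEN proteins that start chlorophyll breakdown by pulling magnesium out of the molecule, stood at 10.33, 10.17 and 10.19 at 15 DAP, against 4.81, 5.06 and 3.77 at 12 DAP. The rise was 5.68 ± 0.39 (adjusted p = 2.22e-05). In all 3 genes each 15 DAP array stood above each 12 DAP array, as the rule for the largest changes required.

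RefSeq gives a gene name for another pair of the 12 largest rises. UGE3, a UDP-glucose epimerase that supplies galactose for cell walls and for sugars, rose by 5.40 ± 0.41, with levels of 8.24, 8.44 and 8.15 at 15 DAP, against 3.22, 2.01 and 3.41 at 12 DAP. RAP2.1, a repressor of the ethylene-response factor family that acts in cold and drought responses, had levels of 8.81, 8.96 and 9.04 at 15 DAP, against 3.11, 3.54 and 4.10 at 12 DAP and rose by 5.35 ± 0.35. The other 7, AT5G37670, AT1G52560, AT1G17010, AT2G21720, AT5G50170, AT1G27030 and AT3G12955 (SAUR74 by its RefSeq synonym), rose by 5.41 to 5.62 log2 units. Among them, AT1G52560 had 10.49, 10.46 and 10.38 at 15 DAP, against 4.88, 4.86 and 4.78 at 12 DAP.

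The largest falls were steeper than the largest rises. AT1G62220 fell by 8.45 ± 0.44 (adjusted p = 7.49e-06), with levels of 1.58, 2.90 and 1.52 at 15 DAP, against 10.70, 10.66 and 9.999 at 12 DAP. No 15 DAP array exceeded 2.90, and the mean over the 15 DAP arrays, 2.001, lay in the range of the dimmest decile of loci, 1.16 to 2.38. The table holds no measure of background, so the size of falls to such levels is that of the RMA values only. AT4G15750 followed, with levels of 2.80, 2.44 and 2.16 at 15 DAP, against 10.87, 10.61 and 10.52 at 12 DAP and a difference of -8.20 ± 0.33 (adjusted p = 4.57e-06). The neighbouring loci AT1G62060 and AT1G62070, 2 of the 12 largest falls, fell by 7.76 and 7.43 log2 units, with levels of 3.48 to 5.27 at 15 DAP, against 11.73 to 12.19 at 12 DAP.

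Named genes among the falls included GILT, a thiol reductase of the lysosomal family, which had levels of 2.86, 2.56 and 2.85 at 15 DAP, against 10.47, 10.40 and 10.14 at 12 DAP. Its difference was -7.58 ± 0.31 (adjusted p = 4.57e-06). LHCB1.3, a chlorophyll-binding protein of the main light-harvesting antenna, fell by 7.36 ± 0.37. The serine carboxypeptidase-like gene scpl20 fell by 7.29 ± 0.34, and the lipid transfer protein gene LTP4 by 6.57 ± 0.33. AT2G47895, a long non-coding RNA, had levels of 3.27, 4.43 and 2.97 at 15 DAP, against 10.31, 10.07 and 9.87 at 12 DAP and fell by 6.53 ± 0.42. The remaining 3, AT1G56100, AT4G12870 and AT1G13607, fell by 7.09 to 7.59 log2 units.

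**Figure D2:**
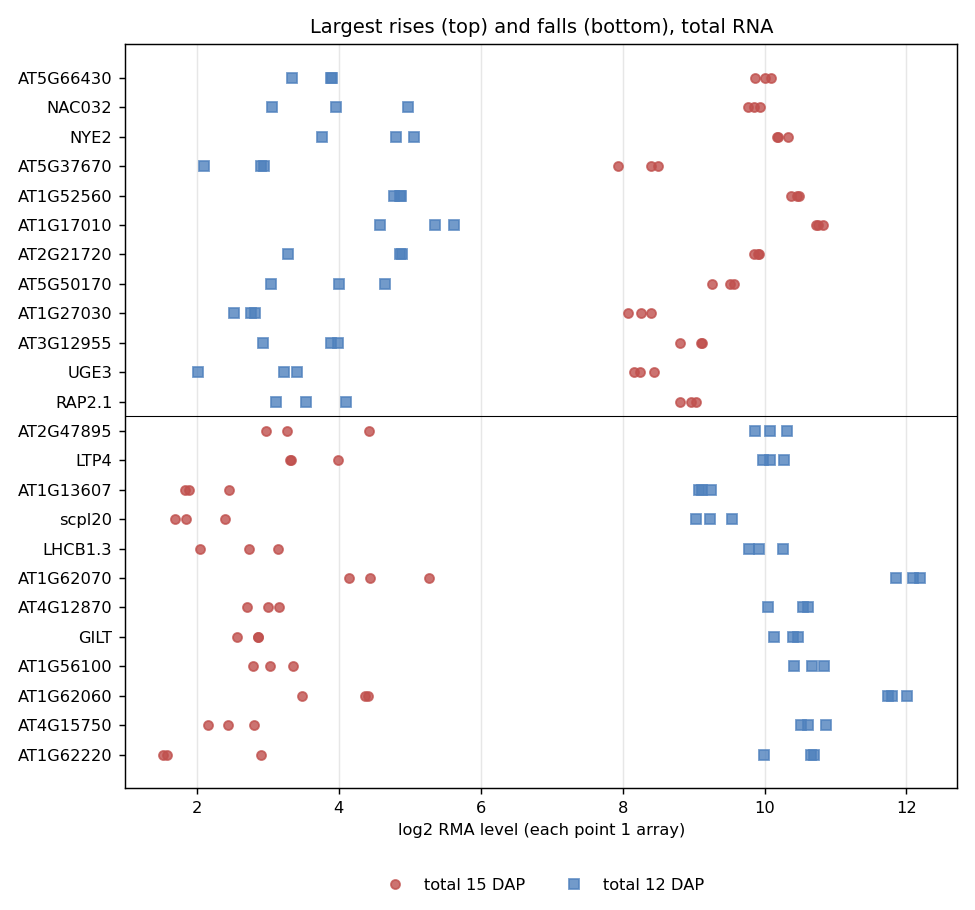
Log2 RMA level (x axis) of the 12 largest rises (upper block) and the 12 largest falls (lower block) called on both scales, 1 point per array. Circles are the 3 total RNA arrays of 15 DAP and squares the 3 of 12 DAP. The groups do not overlap in any row, as the rule for these genes required, and AT1G62220 at the bottom has a difference of -8.45 log2 units.

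Regulators of maturation changed in both directions. Of 18 maturation transcription factors, 8 rose and 5 fell, and on quantile values 5 rose and 5 fell. LEC1, which sets embryo identity and starts maturation, had levels of 2.91, 2.60 and 3.23 at 15 DAP, against 4.97, 4.72 and 5.28 at 12 DAP, with a difference of -2.08 ± 0.34 (adjusted p = 0.00117). Its close relative L1L stood at 3.58, 4.37 and 4.33 at 15 DAP, against 6.69, 5.998 and 6.53 at 12 DAP, and fell by 2.32 ± 0.36. LEC2, a B3-domain activator of the same phase, had 2.54, 2.21 and 2.31 at 15 DAP, against 4.06, 4.17 and 5.52 at 12 DAP, and fell by 2.23 ± 0.42. These 3 early factors were lower on each 15 DAP array than on any 12 DAP array.

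Of the other B3 factors one was called. ABI3, the regulator of storage and desiccation genes that abscisic acid works through, had levels of 9.43, 9.52 and 9.67 at 15 DAP, against 6.79, 6.83 and 6.87 at 12 DAP and rose by 2.71 ± 0.30 (adjusted p = 0.000162). FUS3, the third B3 factor, had 6.65, 6.01 and 6.40 at 15 DAP, against 5.78, 6.26 and 6.70 at 12 DAP, and the groups overlapped. Its difference was 0.11 ± 0.36 (adjusted p = 0.825), and -0.62 ± 0.38 on quantile values, so its sign depended on the scale. No difference in FUS3 was detectable at this spread between arrays.

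WRI1, the AP2 factor that switches on glycolysis and fatty acid synthesis for oil, had 4.09, 4.41 and 5.18 at 15 DAP, against 5.46, 6.75 and 7.03 at 12 DAP and fell by 1.85 ± 0.47 (adjusted p = 0.0119). MYB118, which acts in the endosperm to hold back maturation there, fell by 2.77 ± 0.38, with levels of 3.08, 3.72 and 3.60 at 15 DAP, against 6.51, 5.58 and 6.64 at 12 DAP. HSFA9, the seed-specific heat shock factor, had 9.75, 9.80 and 9.76 at 15 DAP, against 6.91, 5.06 and 5.41 at 12 DAP, and its rise was 3.98 ± 0.47 (adjusted p = 0.000215). AGL67, a MADS factor of late maturation, rose by 4.03 ± 0.50, with 10.28, 10.16 and 10.09 at 15 DAP, against 6.99, 6.53 and 4.92 at 12 DAP. The 12 DAP arrays of both lay far apart, and each stayed below each 15 DAP array.

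Factors of the bZIP family, which bind the promoters of storage and LEA genes, rose where they were called. ABI5, the bZIP through which abscisic acid controls LEA genes, had levels of 10.90, 10.87 and 10.82 at 15 DAP, against 8.01, 7.86 and 7.45 at 12 DAP. The rise was 3.09 ± 0.32 (adjusted p = 0.00011), and it held on quantile values at 2.63. bZIP53 rose by 2.01 ± 0.32, EEL by 1.71 ± 0.32, BZO2H1 by 1.38 ± 0.37 and AREB3 by 0.98 ± 0.33. On quantile values bZIP53 kept its call, at a difference of 1.11, and EEL, BZO2H1 and AREB3 did not. DPBF2 (0.08 ± 0.37), bZIP25 (-0.87 ± 0.33), ABI4 (0.46 ± 0.34) and MYB115 (-0.37 ± 0.31) passed the threshold on neither scale.

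Storage protein transcripts were abundant at both stages. The summed linear level of 13 such loci was 43900 to 45600 on the 15 DAP arrays, against 24900 to 32700 on the 12 DAP arrays. Of these loci 5 rose and 0 fell, with a median difference of 0.67, and on quantile values 6 rose and 0 fell. CRA1, a 12S globulin, had 12.55, 12.53 and 12.41 at 15 DAP, against 12.47, 12.30 and 12.12 at 12 DAP, and was not called (0.20 ± 0.31, adjusted p = 0.615). The 2S albumin gene SESA3 differed by 0.04 ± 0.31 and was not called either. SESA5, another 2S albumin, had 11.76, 11.63 and 11.73 at 15 DAP, against 10.28, 10.07 and 9.93 at 12 DAP and rose by 1.61 ± 0.30 (adjusted p = 0.00266). The vicilin-like gene PAP85 rose by 1.83 ± 0.32, with 12.16, 12.16 and 12.20 at 15 DAP, against 10.67, 10.30 and 10.05 at 12 DAP. In both genes that rose the groups did not overlap. CRA1 stood near the top of the scale, where the highest mean of a locus over the 6 arrays was 12.8. Whether levels so high can show a rise was not tested, here or for OLEO1 below.

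Oil bodies are lipid droplets held apart by oleosins and caleosins. Of 8 oil body loci measured, 6 rose and 0 fell, with a median difference of 1.37, and on quantile values 6 rose and 1 fell, OLEO3. OLEO1, the main oleosin, had 12.33, 12.19 and 12.24 at 15 DAP, against 11.84, 11.54 and 11.56 at 12 DAP. Its difference of 0.61 ± 0.30 did not pass (adjusted p = 0.134). The groups did not overlap, but 24.8% of all loci were higher at 15 DAP without overlap. OLEO2 rose by 1.34 ± 0.32 and OLEO4 by 0.90 ± 0.30. CLO1, the main caleosin, had 11.79, 11.77 and 11.65 at 15 DAP, against 10.25, 10.01 and 9.81 at 12 DAP and rose by 1.71 ± 0.31 (adjusted p = 0.00209). ATPXG2, a caleosin with peroxygenase activity, rose by 3.20 ± 0.36, with 10.80, 10.81 and 10.53 at 15 DAP, against 7.80, 7.84 and 6.89 at 12 DAP. AT5G16460, a listed locus without a RefSeq name, rose by 4.04 ± 0.49.

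Proteins of the storage vacuole changed in both directions, with 4 of 8 loci higher and 2 lower and a median of 0.995. On quantile values 3 rose and 3 fell, with a median of 0.164, and the third fall was GAMMA-VPE, another processing enzyme (-1.29). BETA-VPE, the vacuolar processing enzyme that cuts storage proproteins in the embryo, had 11.25, 11.33 and 11.26 at 15 DAP, against 8.63, 7.70 and 7.31 at 12 DAP and rose by 3.40 ± 0.39 (adjusted p = 0.000186). DELTA-VPE, the form known from the inner seed coat layers where it takes part in their death, had 2.90, 2.34 and 3.95 at 15 DAP, against 8.28, 7.82 and 7.15 at 12 DAP, and fell by 4.69 ± 0.47. The tonoplast channels TIP3;1 and BETA-TIP rose by 2.09 ± 0.32 and 2.07 ± 0.35. VSR1, a sorting receptor for storage proteins, rose by 1.58 ± 0.33 as deposited, and on quantile values its difference of 0.63 was not called.

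Most loci for fatty acid synthesis fell. Of 29 loci for plastid fatty acid synthesis and its carbon supply, 1 rose and 19 fell, with a median difference of -2.07, and on quantile values 0 rose and 23 fell. ACP5, an acyl carrier protein, had 3.27, 3.17 and 4.01 at 15 DAP, against 8.26, 8.43 and 7.70 at 12 DAP and fell by 4.64 ± 0.37 (adjusted p = 3.4e-05). Subunits of acetyl-CoA carboxylase, which makes the first committed intermediate, were lower too, with CAC1 at 3.76, 4.52 and 3.96 at 15 DAP, against 8.15, 7.18 and 7.08 at 12 DAP and a fall of 3.39 ± 0.39. BCCP2, a biotin carrier subunit of the same complex, fell by 2.97 ± 0.35.

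Subunits of the plastid pyruvate dehydrogenase, which supplies the acetyl-CoA, fell too. LTA2, its acetyltransferase subunit, fell by 3.47 ± 0.38, with 4.27, 3.76 and 4.04 at 15 DAP, against 7.83, 7.83 and 6.83 at 12 DAP, and PDH-E1 BETA by 3.29 ± 0.35. Of the chain-building enzymes, KAS1 fell by 2.89 ± 0.32 and KAS2 by 1.696 ± 0.32. The member that rose was GPT1, a glucose-6-phosphate carrier of plastids, by 1.76 ± 0.38, and on quantile values its difference of 0.89 was not called (adjusted p = 0.161). SSI2, the desaturase that makes oleate, differed by 0.15 ± 0.32 and GPT2 by 0.57 ± 0.40, neither called on either scale.

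Assembly of triacylglycerol, the storage oil, showed no common direction, with 3 of 14 loci higher and 3 lower and a median of -0.11. DGAT1, which adds the last acyl chain, had 8.38, 8.06 and 8.22 at 15 DAP, against 5.41, 4.18 and 4.55 at 12 DAP and rose by 3.51 ± 0.38 (adjusted p = 0.000147). PAH2, a phosphatidate phosphatase, rose by 3.33 ± 0.51 and its relative PAH1 by 1.51 ± 0.33. LACS9, which activates fatty acids leaving the plastid, had 4.36, 3.78 and 4.44 at 15 DAP, against 7.07, 7.66 and 7.59 at 12 DAP and fell by 3.25 ± 0.35. ROD1, which moves polyunsaturated chains into the oil, fell by 2.24 ± 0.33, and FAD2, the oleate desaturase, by 1.03 ± 0.33. FAE1, the elongase for very long chains in seed oil, differed by 0.35 ± 0.36, and its groups overlapped.

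Enzymes that break oil down again, best known from seedlings, were higher. Lipid mobilisation had 16 of 20 loci higher and 2 lower, a median of 2.91, and on quantile values 11 rose and 2 fell. ICL, isocitrate lyase of the glyoxylate cycle, had 11.07, 10.97 and 10.97 at 15 DAP, against 6.96, 6.98 and 6.57 at 12 DAP. Its rise of 4.17 ± 0.31 (adjusted p = 2.91e-05) was 18.0-fold as deposited, and on quantile values the log2 difference was 3.74. MLS, malate synthase of the same cycle, had 11.27, 11.23 and 11.33 at 15 DAP, against 7.70, 7.90 and 8.28 at 12 DAP and rose by 3.32 ± 0.32. Neither gene's groups overlapped.

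The peroxisomal steps of beta-oxidation moved with them. PED1, a thiolase, rose by 3.58 ± 0.57, with 10.36, 10.04 and 10.25 at 15 DAP, against 7.31, 7.46 and 5.13 at 12 DAP, where 1 array of 12 DAP lay more than 2 log2 units below the other two. The multifunctional proteins MFP2 and AIM1 rose by 3.22 ± 0.36 and 2.99 ± 0.36, and CSY3, a peroxisomal citrate synthase, by 3.79 ± 0.62. PMDH1, a peroxisomal malate dehydrogenase, rose by 3.48 ± 0.34, with 9.43, 9.03 and 9.30 at 15 DAP, against 5.35, 5.83 and 6.15 at 12 DAP. Its sister gene PMDH2 fell by 3.63 ± 0.34, with 2.54, 2.21 and 1.81 at 15 DAP, against 6.09, 5.85 and 5.51 at 12 DAP. KAT5, another thiolase, fell by 2.94 ± 0.38. SDP1, the lipase that starts the breakdown, rose by 2.07 ± 0.45 as deposited and was not called on quantile values (1.62, adjusted p = 0.067), and ACX1, ACX2, ACX4 and LACS6 also lost their calls there.

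Photosynthesis genes had the lowest median difference of the 27 lists, as deposited and on quantile values. Of 48 nuclear loci of the light reactions, 0 rose and 45 fell, with a median difference of -3.71, and on quantile values 44 fell. LHCB1.3 had 3.14, 2.04 and 2.73 at 15 DAP, against 9.92, 10.26 and 9.79 at 12 DAP. LHCB5, a minor antenna protein, had 3.05, 3.84 and 3.88 at 15 DAP, against 10.24, 9.60 and 9.70 at 12 DAP and fell by 6.25 ± 0.37 (adjusted p = 1.27e-05). PSBO1, the protein that stabilizes the oxygen-evolving cluster, had 3.70, 4.25 and 4.16 at 15 DAP, against 9.43, 9.64 and 9.30 at 12 DAP, and fell by 5.42 ± 0.32. Photosystem I genes were lower likewise, among them PSAL by 4.94 ± 0.35 and PSAG by 4.89 ± 0.45.

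The 3 light-reaction loci that were not called were LHCB4.2 (-0.77 ± 0.49), PSAD-2 (-0.90 ± 0.44) and LHCB4.3 (-1.49 ± 0.59). Smaller falls were measured for PETC, the Rieske protein of the cytochrome complex, at 0.995 ± 0.31, and FD2, the main leaf ferredoxin, at 1.29 ± 0.31. Among the members of 1 gene family the falls were unequal. LHCB1.1, whose gene product is nearly the same as that of LHCB1.3, fell by 1.68 ± 0.44, and probes of such near-identical genes may share signal.

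Carbon fixation had 15 of 18 loci lower and 1 higher, with a median of -2.36. RBCS1A, the most expressed small subunit gene of Rubisco in leaves, had 7.62, 7.07 and 7.36 at 15 DAP, against 10.99, 11.23 and 10.89 at 12 DAP and fell by 3.69 ± 0.32. FBA2, a plastid aldolase, had 4.61, 5.10 and 5.07 at 15 DAP, against 9.53, 10.02 and 9.34 at 12 DAP and fell by 4.70 ± 0.34. RCA, the chaperone that reactivates Rubisco, fell by 3.94 ± 0.36. RPE, the epimerase that the Calvin cycle shares with other sugar pathways, rose by 1.22 ± 0.33 as deposited and lost the call on quantile values, at 0.27.

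Chlorophyll synthesis and breakdown moved apart. Of 14 synthesis loci 0 rose and 9 fell, with a median of -1.54, and 6 fell on quantile values. CRD1, the cyclase that closes the fifth ring, had 3.68, 4.07 and 3.83 at 15 DAP, against 8.79, 8.80 and 8.26 at 12 DAP and fell by 4.76 ± 0.33. CHLH, a subunit of the magnesium chelatase, had 3.38, 3.46 and 3.75 at 15 DAP, against 7.97, 7.87 and 8.15 at 12 DAP and fell by 4.46 ± 0.31. Its partner CHLI1 fell by 3.19 ± 0.33, and the partner CHLD, by contrast, differed by 0.27 ± 0.50.

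Of 8 loci for chlorophyll breakdown 5 rose and 0 fell, with a median of 2.79, and the same counts held on quantile values. Beside NYE2, its sister NYE1 had 10.20, 10.26 and 9.89 at 15 DAP, against 6.88, 7.28 and 6.77 at 12 DAP and rose by 3.14 ± 0.32 (adjusted p = 0.000111). NYC1, the reductase that turns chlorophyll b into a, rose by 3.05 ± 0.38, with 9.46, 9.53 and 9.53 at 15 DAP, against 6.46, 7.11 and 5.80 at 12 DAP. PPH, which removes the phytol tail, rose by 3.25 ± 0.51, and PAO, which opens the ring, by 2.53 ± 0.31. The later step ACD2 (0.76 ± 0.32), the reductase HCAR (0.58 ± 0.33) and NOL (-0.48 ± 0.45) were not called.

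**Figure D3:**
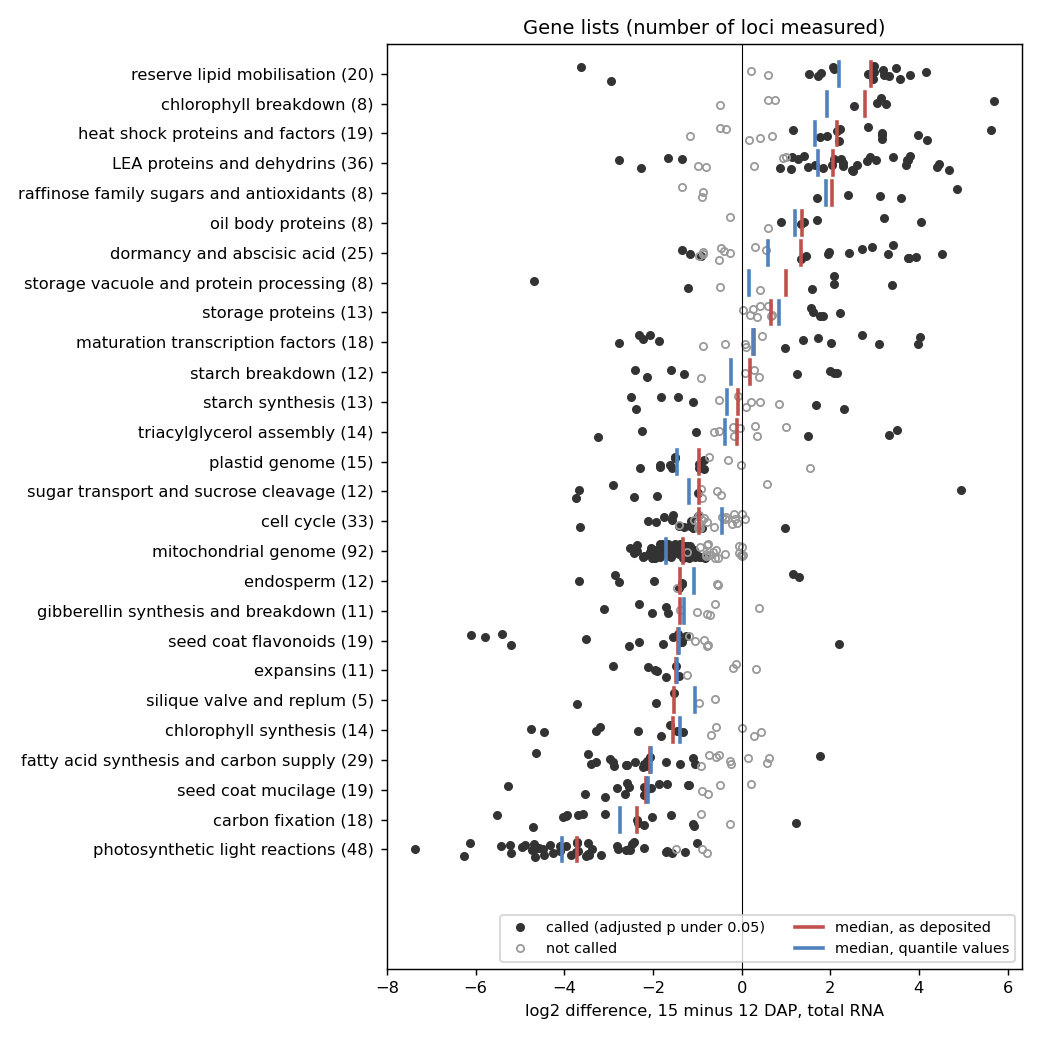
Log2 difference, 15 minus 12 DAP (x axis), of each locus of the 27 lists, 1 point per locus, with filled points for loci called as deposited. Red bars are the median of a list as deposited and blue bars the median on quantile values. The light reactions lie at the bottom, with a median of -3.71, and lipid mobilisation at the top, with 2.91.

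LEA proteins, the unstructured proteins that protect cells as they dry, were mostly higher. Of 36 loci 27 rose and 4 fell, with a median of 2.06, and on quantile values 27 rose and 3 fell. M17 had 11.94, 11.88 and 11.89 at 15 DAP, against 8.31, 7.43 and 6.70 at 12 DAP and rose by 4.42 ± 0.42 (adjusted p = 7.62e-05). ATECP31 rose by 4.44 ± 0.54 with 11.34, 11.19 and 11.30 at 15 DAP, against 7.77, 7.30 and 5.43 at 12 DAP. EM1 and EM6 are LEA proteins of the late seed. EM1 had 11.89, 11.84 and 11.99 at 15 DAP, against 10.66, 10.32 and 10.26 at 12 DAP and rose by 1.49 ± 0.31, and EM6 rose by 1.28 ± 0.30. RAB18, a dehydrin, had 12.44, 12.34 and 12.48 at 15 DAP, against 11.74, 11.45 and 11.45 at 12 DAP and rose by 0.87 ± 0.30.

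The 4 LEA loci that fell were ERD10, COR47, AT2G44060 and AT2G33690, of which AT2G33690 lost its call on quantile values. ERD10 and COR47 are dehydrins known from cold and drought responses of leaves. ERD10 had 4.29, 4.12 and 4.07 at 15 DAP, against 7.34, 7.08 and 6.34 at 12 DAP, and fell by 2.76 ± 0.36. COR47 had 3.15, 3.16 and 2.33 at 15 DAP, against 4.62, 5.12 and 5.70 at 12 DAP, and fell by 2.27 ± 0.40. Both were lower on each 15 DAP array, while the dehydrins XERO1 and XERO2 rose by 2.61 ± 0.32 and 3.41 ± 0.35.

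Heat shock protein genes, many of which are switched on in late seeds without heat, rose at 13 of 19 loci and fell at 0, with a median of 2.14. On quantile values 11 rose and AT1G59860 fell. HSP90.1, a chaperone, had 10.57, 10.51 and 10.49 at 15 DAP, against 6.31, 5.74 and 6.97 at 12 DAP and rose by 4.19 ± 0.37 (adjusted p = 5.6e-05). HSP101, the disaggregase needed for heat tolerance, had 10.74, 10.66 and 10.62 at 15 DAP, against 7.83, 7.69 and 6.97 at 12 DAP, with a difference of 3.17 ± 0.34. Differences over the 19 loci ran between -1.16 and 5.62. HSP17.4 rose by 2.20 ± 0.33 and HSP17.6A by 1.78 ± 0.35, both far below that upper end. This pair does not stand for small heat shock proteins as a class. HSP17.6II differed by 0.68 ± 0.38 and was not called. HSFA2, the factor that sustains the heat response in leaves, differed by -0.35 ± 0.32 and was not called on either scale.

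Raffinose family sugars and a seed peroxiredoxin, which protect dry cells, gave 5 higher and 0 lower of 8 loci on both scales. GOLS1, a galactinol synthase for the first step, had 10.92, 10.82 and 10.84 at 15 DAP, against 5.76, 6.45 and 5.80 at 12 DAP. Its rise of 4.86 ± 0.33 (adjusted p = 2.22e-05) was 29.0-fold as deposited, and on quantile values the log2 difference was 4.52. GOLS2 rose by 3.61 ± 0.38, whereas GOLS3, known as the cold-induced form, differed by -0.90 ± 0.51 and was not called. STS, a stachyose synthase, rose by 2.40 ± 0.37 and SIP2, an alkaline alpha-galactosidase that works on raffinose, by 3.13 ± 0.31. PER1, the peroxiredoxin, rose by 1.701 ± 0.30, with 11.74, 11.72 and 11.72 at 15 DAP, against 10.13, 10.01 and 9.94 at 12 DAP.

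Of 25 loci for dormancy and abscisic acid 13 rose and 3 fell, and 11 rose and 2 fell on quantile values. DOG1, the main dormancy gene, had 8.82, 8.84 and 8.63 at 15 DAP, against 6.51, 5.68 and 5.27 at 12 DAP and rose by 2.94 ± 0.38 (adjusted p = 0.000355). RDO5, a phosphatase-like protein that also promotes dormancy, had 8.89, 8.83 and 8.98 at 15 DAP, against 5.59, 4.99 and 4.88 at 12 DAP and rose by 3.75 ± 0.33. SOM, which represses light-induced germination, rose by 3.42 ± 0.38. MFT, a relative of FT that acts in germination, was already high, with 10.33, 10.22 and 10.51 at 15 DAP, against 10.17, 9.98 and 9.98 at 12 DAP, and differed by 0.31 ± 0.30.

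Synthesis of abscisic acid was uneven. ABA1, the zeaxanthin epoxidase at the head of the route, had 9.34, 9.30 and 9.26 at 15 DAP, against 6.23, 5.18 and 5.15 at 12 DAP and rose by 3.78 ± 0.37. ABA3, the cofactor enzyme of the last step, rose by 2.72 ± 0.42. The cleavage enzymes NCED6 and NCED3 fell by 1.16 ± 0.40 and 0.91 ± 0.32, and ABA2 by 1.35 ± 0.47. On quantile values NCED3 kept its call and NCED6 and ABA2 lost theirs (adjusted p = 0.0643 and 0.0829). NCED9, a form known from developing seeds, differed by -0.88 ± 0.42 and was not called.

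Several genes of the same list act in signalling by the hormone. SNRK2.3, a kinase that activates ABI5-type factors, had 7.76, 7.76 and 7.37 at 15 DAP, against 3.49, 2.47 and 3.35 at 12 DAP and rose by 4.53 ± 0.37 (adjusted p = 3.7e-05). Its relative SNRK2.2 rose by 1.97 ± 0.44, a call that quantile values did not keep. The phosphatases that hold these kinases off rose too. AHG1, the seed form that DOG1 binds, had 10.35, 10.27 and 10.23 at 15 DAP, against 6.08, 6.75 and 6.22 at 12 DAP and rose by 3.93 ± 0.32, AHG3 rose by 2.42 ± 0.36 and HAB1 by 1.95 ± 0.30. CYP707A2, which breaks the hormone down, rose by 1.45 ± 0.31.

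Gibberellin, the hormone that opposes dormancy, showed 0 higher and 5 lower of 11 loci, and 4 lower on quantile values. GA20OX3 had 4.61, 4.27 and 4.66 at 15 DAP, against 8.16, 7.58 and 7.10 at 12 DAP and fell by 3.10 ± 0.36 (adjusted p = 0.000216). The other falls were GA3OX4 (2.32 ± 0.49), GA20OX1 (2.02 ± 0.48), GA3OX3 (1.71 ± 0.50) and GA20OX2 (1.65 ± 0.46), all synthesis enzymes. The 4 catabolic GA2OX genes measured ranged between -0.999 and 0.40 and were not called on either scale.

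Sugar supply to the embryo passes through the coat and endosperm. Of 12 loci for sugar transport and sucrose cleavage 1 rose and 6 fell. SWEET15, a sucrose exporter of seed coat and endosperm, had 5.57, 4.31 and 4.92 at 15 DAP, against 8.74, 8.76 and 8.50 at 12 DAP and fell by 3.74 ± 0.38. SWEET11 fell by 2.90 ± 0.88, but 1 of its 12 DAP arrays, at 2.74, lay near the 15 DAP arrays, and the call was lost on quantile values. The sucrose synthases went apart, as SUS2 fell by 2.43 ± 0.35 and SUS3 rose by 4.95 ± 0.30 (adjusted p = 1.7e-05). SUS3 had 10.84, 10.84 and 10.83 at 15 DAP, against 5.81, 5.75 and 6.09 at 12 DAP, with no overlap.

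Starch, which the seed holds only for a time, gave 2 higher and 5 lower of 13 synthesis loci and 4 higher and 4 lower of 12 breakdown loci. APL3 and SBE2.2, a subunit of ADP-glucose pyrophosphorylase and a branching enzyme, fell by 2.49 ± 0.44 and 2.37 ± 0.36. SS4, which starts new granules, rose by 2.32 ± 0.44. BAM1, a beta-amylase, had 10.67, 10.59 and 10.67 at 15 DAP, against 8.63, 8.78 and 8.04 at 12 DAP and rose by 2.16 ± 0.33, while BAM3, the main leaf form, fell by 2.13 ± 0.44. Starch genes thus had no shared direction on either scale.

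Calls among cell division genes depended on the scale. The median level of the list was 2.74 to 3.04 on the 15 DAP arrays, against 3.60 to 3.99 on the 12 DAP arrays. Of 33 loci 1 rose and 13 fell as deposited, with a median of -0.96, and on quantile values 1 rose and 3 fell, with a median of -0.44. Over all loci 19.4% fell as deposited and 11.4% on quantile values, so the list's share of falls was not above the latter. SYP111, the KNOLLE syntaxin that fuses vesicles into the new cell wall, had 2.59, 2.32 and 1.92 at 15 DAP, against 5.88, 6.50 and 5.38 at 12 DAP and fell by 3.64 ± 0.38 (adjusted p = 0.000128). CDC20.1, an activator of the anaphase-promoting complex, fell by 2.10 ± 0.45, with 3.65, 3.96 and 5.26 at 15 DAP, against 6.66, 6.55 and 5.97 at 12 DAP, and CDKB2;1, a mitotic kinase, by 1.75 ± 0.31. These 3 fell on both scales, and no cyclin of the list did. AUR2, the member that rose, had a difference of 0.98 ± 0.35.

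Expansins, which loosen cell walls as cells grow, gave 0 higher and 7 lower of 11 loci, and 4 lower on quantile values. EXPA10 had 3.98, 5.31 and 4.15 at 15 DAP, against 7.46, 7.53 and 7.17 at 12 DAP and fell by 2.90 ± 0.40. EXPA1 fell by 2.11 ± 0.44 on arrays of 3.86, 4.79 and 4.16 at 15 DAP, against 5.70, 6.26 and 7.18 at 12 DAP. EXPA15, with levels of 8.12, 8.38 and 8.18 at 15 DAP, against 7.68, 8.23 and 7.80 at 12 DAP, differed by 0.32 ± 0.32 and its groups overlapped.

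Markers of the seed coat fell strongly. Of 19 loci for the flavonoids that colour the coat 13 fell and TT15 rose, and on quantile values 11 fell. The summed linear level of the list was 409 to 481 on the 15 DAP arrays, against 2750 to 4240 on the 12 DAP arrays. LDOX had 1.96, 3.40 and 2.81 at 15 DAP, against 9.04, 8.83 and 8.63 at 12 DAP and fell by 6.11 ± 0.41 (adjusted p = 2.1e-05). BAN, the reductase that commits flavonoids to tannin, had 1.86, 1.40 and 2.10 at 15 DAP, against 7.96, 8.14 and 6.64 at 12 DAP, and fell by 5.80 ± 0.44. TT4, chalcone synthase at the head of the route, fell by 5.20 ± 0.33, with 4.53, 4.91 and 4.99 at 15 DAP, against 10.27, 10.12 and 9.65 at 12 DAP. Of the regulators of the route, TT8 fell by 1.77 ± 0.31 and TT2 by 1.35 ± 0.34, and quantile values lost the call of TT2. TTG1, TTG2 and TT16 were not called on either scale.

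Mucilage of the outer coat layer gave 0 higher and 15 lower of 19 loci on both scales, with a summed level of 453 to 519 at 15 DAP, against 1930 to 2450 at 12 DAP. BXL1, a bifunctional xylosidase and arabinofuranosidase, had 3.12, 2.58 and 2.78 at 15 DAP, against 8.30, 8.60 and 7.38 at 12 DAP and fell by 5.26 ± 0.39. MUM2, a galactosidase needed for mucilage to swell, fell by 2.63 ± 0.32, and MUM4, which makes rhamnose for its pectin, by 2.58 ± 0.45. COBL2, which orders its cellulose, fell by 3.07 ± 0.32, with 4.71, 4.27 and 4.71 at 15 DAP, against 7.53, 7.83 and 7.55 at 12 DAP.

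Endosperm markers gave 2 higher and 7 lower of 12 loci, and 1 and 5 on quantile values. SUC5, a sucrose carrier of the endosperm, had 2.51, 2.45 and 2.49 at 15 DAP, against 6.95, 4.68 and 6.81 at 12 DAP and fell by 3.67 ± 0.55. ALE1, a subtilase by which the endosperm shapes the embryo cuticle, fell by 1.98 ± 0.35. EPR1, an extensin-like gene of the mature endosperm, had 11.62, 11.56 and 11.60 at 15 DAP, against 10.64, 10.44 and 10.25 at 12 DAP and rose by 1.15 ± 0.31. The summed level of the list was 3190 to 3330 at 15 DAP, against 1650 to 2050 at 12 DAP, and EPR1 alone made up most of it at both stages. Array medians over the list went the other way, with 2.75 to 2.97 at 15 DAP, against 4.68 to 5.47 at 12 DAP. AGL62, FWA and PHE1, known from the early endosperm, were not called. No array value is 0, and AGL62 had levels of 1.26, 1.20 and 1.34 at 15 DAP, against 1.61, 2.25 and 1.63 at 12 DAP.

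Of 5 markers of the silique valve and replum, tissue that seed samples could hold, 3 fell. The list summed to 35.5 to 43.1 at 15 DAP, against 90.0 to 372 at 12 DAP. SHP2, a MADS factor that is also active in ovules and seed coat, had 3.24, 3.47 and 3.14 at 15 DAP, against 7.92, 7.68 and 5.43 at 12 DAP and fell by 3.72 ± 0.59. IND (-0.96 ± 0.56) and FUL (-0.61 ± 0.50), which mark the valve margin and the valve, were not called and their groups overlapped. Falls were thus measured among markers of all these tissues, at 13 of 19 flavonoid, 15 of 19 mucilage, 7 of 12 endosperm and 3 of 5 valve loci, or 11, 15, 5 and 2 on quantile values. Their part in the falls of photosynthesis and fatty acid genes was not tested.

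Of the 92 loci of the mitochondrial genome 0 rose and 73 fell in total RNA, with a median of -1.32, and 76 fell on quantile values. ATMG01030 had 7.18, 7.69 and 6.84 at 15 DAP, against 9.56, 9.76 and 9.97 at 12 DAP and fell by 2.52 ± 0.34. Array medians over these loci ran between 9.37 and 9.54 at 15 DAP, against at least 10.86 at 12 DAP. The step in polysomal RNA had the opposite sign for most of them, with a median of 1.15. Of the 73 that fell in total RNA 13 had a polysomal step below 0, a share of 17.8%, against 94.8% of the nuclear loci that fell. Some of these loci have values identical to those of another locus, and such loci were not named one by one.

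The difference between both steps, total minus polysomal, was tested over the 12 arrays of 12 and 15 DAP. The fit took these arrays as independent, and whether both fractions of a stage share pools was not tested. Of the 27827 loci, 249 (0.895%) had a difference above 0 and 557 (2.0%) a difference below 0. Differences above 0 thus made up 30.9% of the 806 calls, against 13.1% of 1070 calls after median centring. Of the 557, 63 were mitochondrial, where 92 loci were measured. The 15 plastid loci gave 1. In total RNA 11 of the 15 plastid loci fell, with a median of -0.96, and ATCG00230 fell most, by 2.30 ± 0.32. These arrays of polysomal RNA at 12 DAP had the narrowest range of all, with an SD over loci of 1.39 to 1.49, and the part of that range in these calls was not tested.

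Of the 19 heat shock loci 5 had such a difference below 0 and 0 above. They were HSP17.6II, HSP23.6-MITO, HSP17.6A, AT2G29500 and AT1G53540, named after their values were seen. HSP17.6A rose by 1.78 ± 0.35 in total RNA and had a step of 5.67 in polysomal RNA, so the difference was -3.89 ± 0.87 (adjusted p = 0.0242). HSP23.6-MITO rose by 1.16 ± 0.36 in total RNA, where quantile values lost the call, and the step in polysomal RNA was 5.36, a difference of -4.20 ± 0.54 (adjusted p = 0.000998). Quantile values lost the difference of HSP17.6A and AT1G53540 (adjusted p = 0.142 and 0.0646) and kept that of HSP17.6II, HSP23.6-MITO and AT2G29500.

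**Figure D4:**
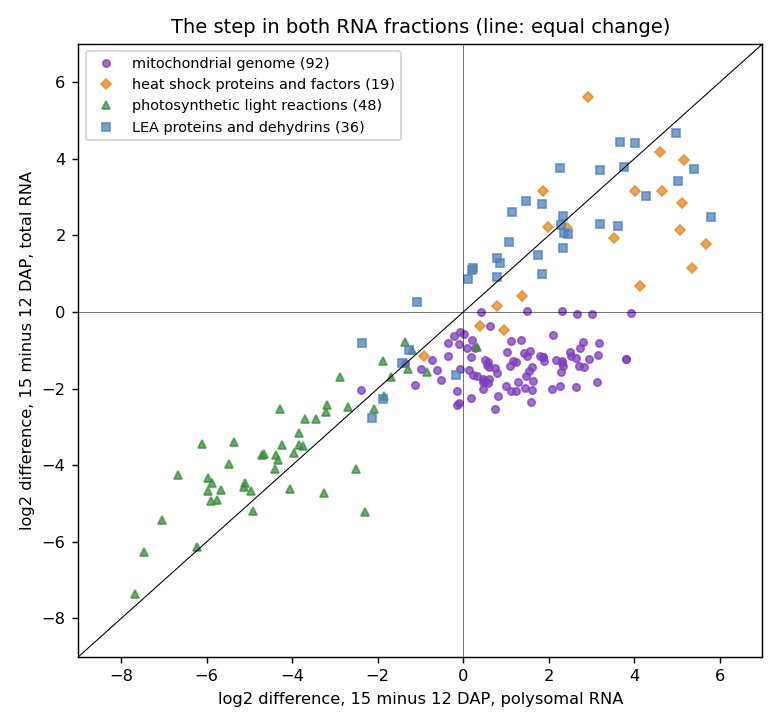
Log2 difference, 15 minus 12 DAP, in total RNA (y axis) against polysomal RNA (x axis), 1 point per locus, for 4 lists with their number of loci. The line marks equal change. Light-reaction and LEA loci lie along it, and the mitochondrial loci lie to its right, with a median of -1.32 in total RNA and 1.15 in polysomal RNA.

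The change over these 3 days can be set beside what followed. The median level of the light-reaction list on the total RNA arrays averaged 7.62 at 12 DAP, 3.53 at 15 DAP, 3.12 at 18 DAP and 3.08 at 20 DAP. For LEA loci the same average was 7.65 at 12 DAP, 10.89 at 15 DAP, 10.80 at 18 DAP and 10.73 at 20 DAP. Lipid mobilisation stood at 6.01, 8.27, 8.60 and 8.67 at these stages, and fatty acid synthesis at 7.21, 5.58, 4.95 and 5.08. Most of the distance between 12 and 20 DAP in these lists lay in the first step. For the mitochondrial list the average was 10.93, 9.48, 9.01 and 8.69, lower at each later stage. The stages after 12 DAP share the wider range of levels, and its part in the size of the first step was not tested.

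**Figure D5:**
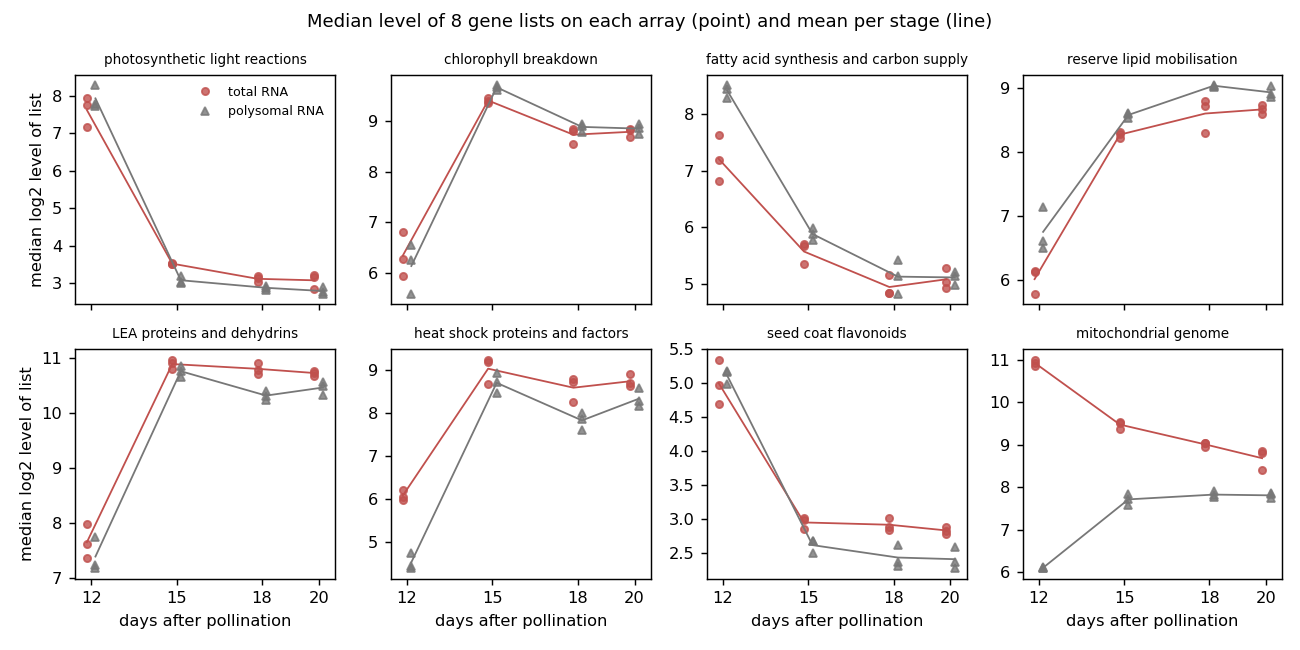
Median log2 level of 8 gene lists on each array (points) and the mean per stage (lines) at 12, 15, 18 and 20 DAP, in total RNA (circles) and polysomal RNA (triangles). In total RNA the light-reaction list averages 7.62 at 12 DAP and 3.53 at 15 DAP, and the LEA list 7.65 and 10.89. The mitochondrial list runs in opposite directions in the 2 fractions between 12 and 15 DAP.

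Among RNA classes that RefSeq does not count as protein-coding, tRNA loci fell at 28 of 61 and rose at 0, with a median of -1.06, and on quantile values 22 fell. Transcribed pseudogenes fell at 21 of 32 and rose at 1. The snoRNA loci, which guide modification of ribosomal RNA, rose at 11 of 68 and fell at 2, and on quantile values 7 rose and 2 fell. Their share of rises was not above that of all loci, 20.5% as deposited and 14.0% on quantile values. Falls were called at 19.4% of all loci as deposited and at 11.4% on quantile values. Long non-coding RNA loci gave 20 higher and 50 lower of 222, against 5611 higher and 5064 lower of 26486 protein-coding loci. What the probe sets of these short or structured RNAs detect was not tested.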

How the data were processed

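Total and polysomal RNA of Col-0 seeds were measured on 24 one-colour arrays, of which 6 are compared here and 6 more, polysomal RNA at 12 and 15 DAP, serve the test of both steps. The authors deposited one table of log2 values made with RMA, per the submitters' processing notes, which give no version. The array design, the genome build and which arrays were normalized together are not given in the sources used here. Arrays give no count depth, and their number, 3 per group, limits the precision.

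Groups were taken from the sample titles. All 27827 loci were fitted with limma 3.58.1 in R 4.3.3 (lmFit, eBayes) on the 6 arrays alone, leaving 4 residual degrees of freedom, with Benjamini-Hochberg adjustment over all loci and a threshold of 0.05. The change between fractions was an interaction over 12 arrays. The fit was repeated after quantile normalization of the 6 arrays, and other settings are in the closing section. RefSeq's table of genes for the assembly TAIR10.1 supplied the names, with 27241 loci matched and 586 unmatched. A total of 182 loci have values identical to those of another locus and were tested but kept out of the largest changes. The steps were tested on simulated data.

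Genes named are the 12 largest rises and 12 largest falls called on both scales without overlap between groups, the 3 largest differences between fractions in each direction, the 4 largest called changes of each list with up to 3 called the other way, and 12 genes named whatever their result, except an item that is not reported here. Other list members are given as illustrations and were chosen after their values were seen. The comparison, its lists, markers and naming rule were chosen with earlier results of these data known. Linear sums of a list add 2 to the power of each level. Labels state separate pools of plants, so p values measure the spread between pools.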

Additional observations from a re-analysis of the deposited data

Results flagged for a closer look

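The change between 12 and 15 DAP differed between total and polysomal RNA at 22 of the loci described here, by the limma interaction over 12 arrays at an adjusted p under 0.05. The values below are the log2 step in total RNA minus the step in polysomal RNA. Above 0 were AT3G04445 (3.78), AT3G16895 (3.77), FBA2 (1.99) and CRD1 (1.90). FBA2 and CRD1 had steps below 0 in both fractions, larger in polysomal RNA, at -4.70 in total RNA and -6.70 in polysomal RNA for FBA2 and -4.76 in total RNA and -6.66 in polysomal RNA for CRD1.

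Below 0 stood AT5G28320 (-6.33), AT4G18690 (-5.23), AT2G07798 (-5.08), RBCS2B (-3.18), AT4G15750 (-2.97), AT2G47895 (-2.68), DFR (-2.40), FLA5 (-2.31), AT1G56100 (-1.95) and ABI5 (-1.75). DFR, a reductase of the flavonoid route, had steps of -5.40 in total RNA and -3.00 in polysomal RNA, and ABI5 steps of 3.09 in total RNA and 4.84 in polysomal RNA. The adjusted p of AT1G56100 and ABI5 were 0.0499 and 0.0495, just inside the threshold. In AT5G28320, replicate 3 of each stage lay far below the other two arrays. Its step in total RNA was not called (adjusted p = 0.0865), but was with the replicate block (adjusted p = 0.000342).

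Heat shock genes below 0 were HSP23.6-MITO (-4.20), HSP17.6A (-3.89), HSP17.6II (-3.45), AT2G29500 (-2.93) and AT1G53540 (-2.26). Mitochondrial loci below 0 were ATMG01180 (-3.94), ATMG00190 (-3.31) and ATMG01030 (-3.27), with steps below 0 in total RNA and above 0 in polysomal RNA. After quantile normalization of the 12 arrays 10 of the 22 lost the call, namely AT3G04445, AT3G16895, AT5G28320, AT4G15750, AT2G47895, AT1G56100, AT1G53540, HSP17.6A, ABI5 and CRD1. AT1G56100, ABI5 and CRD1 also lost it with the replicate block, and CRD1 after median centring.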

How the results depend on the processing

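The count of 11111 changed loci changed with the setting. It was 7058 on quantile values, 6579 on quantile values with a replicate block (an alternative chosen after seeing the data), 2961 by limma's treat against a 2-fold change and 6417 at an adjusted p under 0.01. Loci that rose, 5704, numbered 3658 after cyclic loess, 2101 by treat and 3559 on quantile values with the block. Loci that fell, 5407, numbered 3169 on quantile values, 3388 after median centring, 8327 in one model over 24 arrays, 860 by treat, 2456 at an adjusted p under 0.01 and 3020 on quantile values with the block. Leaving out 1 array at a time gave 7603 to 11342 changed loci, 4332 to 5715 higher and 3271 to 5627 lower, the low counts each without a 15 DAP array. The 806 differences between fractions became 436 on quantile values, 3645 in one model over 24 arrays and 241 to 1209 with 1 array left out. With the replicate block they numbered 635, of which 186 were above 0 and 449 below. FUS3 reversed, with 0.11 as deposited and -0.62 on quantile values with and without the block, -1.03 after cyclic loess, and -0.13 to 0.33 with 1 array left out, below 0 without replicate 1 of 15 DAP (-0.04) or replicate 1 of 12 DAP (-0.13), none of them called. Of 150 named genes 12 lost the call on quantile values (SS3, CYCA2;3, ABA2, EXPA4, NCED6, ICE1, EXPA5, SWEET11, GPT1, RPE, ALC and ATCG00580), 12 after cyclic loess, 7 after median centring and 40 by treat. Over all loci, same-numbered arrays did not deviate together, with correlations of their deviations of 0.0214, 0.0394 and 0.00337. Single loci can differ from this, as AT5G28320 did, so whether the numbers mark shared blocks stays unknown. With the replicate block 11111 loci were called, 5624 higher and 5487 lower. AUR2, NCED3 and ATCG00580 lost the call under it. Some lists moved with the setting too. After cyclic loess the storage vacuole list had a median of -0.215, against 0.995 as deposited, and endosperm markers gave 0 higher and 5 lower. Light reactions gave 0 higher and 44 lower after cyclic loess, and LEA loci 26 higher and 3 lower. In the gaps between settings the cause was not tested, beyond fewer arrays or a stricter threshold where the setting brings one. Arrays give no depth, and 3 pools per stage limit how small a difference can be called.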

Other observations

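Some gene families outside the lists stood out, chosen after their values were seen, so their counts are descriptions with no test of the family. Peroxisome biogenesis genes named PEX rose at 12 of 19 loci and fell at 0, with PEX19-1, the import receptor for membrane proteins, 3.65 ± 0.40 higher. Vacuolar sorting genes named VPS rose at 23 of 30. Proteasome regulatory particle genes (RPT and RPN) rose at 12 of 17 and fell at 1, and RNA polymerase II subunits (NRPB) rose at 10 of 15. Plastid import genes named TOC rose at 9 of 12. JAZ genes, repressors of jasmonate responses, rose at 5 of 10, and JAZ3 had 10.19, 10.20 and 10.19 at 15 DAP, against 6.20, 6.48 and 5.90 at 12 DAP. On quantile values the rises numbered 11 for PEX, 18 for VPS, 9 for RPT and RPN, 9 for NRPB, 7 for TOC and 5 for JAZ, where 1 JAZ locus fell.

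Families of the cell wall and surface went the other way. Arabinogalactan protein genes (AGP) fell at 20 of 30 and rose at 2, and fasciclin-like ones (FLA) fell at 12 of 19. FLA5 had 3.50, 3.72 and 3.40 at 15 DAP, against 9.18, 9.24 and 9.10 at 12 DAP. KCS genes, which elongate very long chain fatty acids for cuticle and suberin, fell at 12 of 21 and rose at 1, beta-tubulins (TUB) fell at 7 of 9, and IRX genes of secondary walls fell at 6 of 10 and rose at 1. Over all loci 20.5% rose and 19.4% fell. IRX9, a xylan synthesis gene, fell by 3.78 ± 0.42. On quantile values the falls numbered 19 for AGP, 10 for FLA, 8 for KCS, 4 for TUB and 6 for IRX.

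Loci next to each other in the order of locus codes that were called on both scales, each with a change of at least 2 log2 units in the same direction, formed 21 runs of rises and 6 runs of falls, of at least 3 loci. The steepest runs were AT1G62060 to AT1G62080, with a median of -7.43, and AT1G62210 to AT1G62225, with -5.25. How many runs chance gives was not tested.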
